A study of Mus musculus with 12 samples.

Results

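The 8 lymphatic vessel marker genes Prox1, Lyve1, Flt4, Pdpn, Reln, Mmrn1, Vegfc and Fgl2 were read by symbol from the 25284 genes of the deposited count table, and all 8 were present with reads in every mouse. The data are RNA sequencing of the thoracic aorta of 12 male mice on a C57BL/6 background, all apoE-/-, all fed a high fat, cholesterol enriched diet and all aged 18 weeks at sampling. Of these, 6 received AZ6983, an agonist of the α7 nicotinic acetylcholine receptor (α7nAChR), from an osmotic minipump under the skin, with a daily dose of 50 µmol per kg over 8 weeks (mice A1 to A6), and 6 received the vehicle, cyclodextrin in saline (mice C1 to C6). Both groups carry this genotype, so no comparison here is with mice that have intact Apoe. Whole vessel RNA was used, and for any gene fewer cells of a type and less RNA per cell cannot be told apart.

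Lymphatic vessels drain fluid, lipoproteins and immune cells from tissues, and in large arteries they lie in the adventitia, the outer coat of the wall. Lymphatic endothelium is specified by the transcription factor PROX1 and kept alive and growing by the ligand VEGF-C, which acts through the receptor tyrosine kinase VEGFR3, the product of Flt4. LYVE1 is a hyaluronan receptor of lymphatic endothelium that is also carried by macrophages resident around arteries, and podoplanin (Pdpn) is a sialoglycoprotein found on lymphatic endothelium, fibroblasts and mesothelium. Reelin (Reln) and multimerin 1 (Mmrn1) are secreted by lymphatic endothelium, the former being best known from the developing brain and the latter also from platelets. FGL2 is a fibrinogen-like protein made by endothelium, macrophages and T cells.

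On the mm10 build, in the GENCODE M21 annotation, Prox1 lies at chr1:190118035-190170714 on the minus strand, Lyve1 at chr7:110850607-110863239 on the minus strand, Flt4 at chr11:49609263-49652739 on the plus strand and Pdpn at chr4:143267431-143299564 on the minus strand. Reln lies at chr5:21884454-22344702 on the minus strand, Mmrn1 at chr6:60924976-60989378, Vegfc at chr8:54077606-54187096 and Fgl2 at chr5:21372642-21378374, the last 3 on the plus strand. All 8 are protein coding, and no exon of theirs overlaps a gene of the same strand. On the other strand Prox1os overlaps exons of Prox1 and Gm10475 overlaps exons of Reln, neither of these has a row in the table, and the strand setting of the counting is not given in the sources used here.

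Prox1 and Reln had the highest Pearson's r of the 28 pairs of markers, while Pdpn followed neither, so the 250 bases before the outermost RefSeq start of these 3 genes are shown (RefSeq, GRCm38.p6, the build also called mm10, written 5′ to 3′ on the strand of the gene). Capitals mark matches, on either strand, to 5 motifs that do not contain each other. The letters searched were ACAAT, which is the core bound by SOX factors, and AGGTCA, which is a nuclear receptor half-site. Searched as well were AGATAA, which is bound by GATA factors, and CGGAAG, which is the core bound by ETS factors. The last motif, TATAAA, is that of the TATA box.
Prox1, chr1:190170828-190171077, minus strand: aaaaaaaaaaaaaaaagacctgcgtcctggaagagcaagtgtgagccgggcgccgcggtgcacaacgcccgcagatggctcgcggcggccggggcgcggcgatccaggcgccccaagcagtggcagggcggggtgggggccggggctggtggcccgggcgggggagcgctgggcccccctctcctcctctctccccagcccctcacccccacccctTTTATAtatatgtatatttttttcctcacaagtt
Reln, chr5:22344706-22344955, minus strand: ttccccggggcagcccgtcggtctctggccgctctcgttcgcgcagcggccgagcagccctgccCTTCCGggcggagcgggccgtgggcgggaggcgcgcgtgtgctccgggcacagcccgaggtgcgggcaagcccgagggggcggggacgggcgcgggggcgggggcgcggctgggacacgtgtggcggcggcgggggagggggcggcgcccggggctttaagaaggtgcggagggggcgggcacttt
Pdpn, chr4:143299565-143299814, minus strand: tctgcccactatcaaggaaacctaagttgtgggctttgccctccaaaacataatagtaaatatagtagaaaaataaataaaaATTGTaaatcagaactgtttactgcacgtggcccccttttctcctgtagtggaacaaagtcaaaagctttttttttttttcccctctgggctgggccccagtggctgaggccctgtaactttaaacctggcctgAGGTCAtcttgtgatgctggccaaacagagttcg
The Prox1 window held 20 CpG dinucleotides, more than 82.1% of the 32851 windows of the same length before RefSeq starts, whose median was 6. The Reln window held 37, more than 97.8% of them, and the Pdpn window held 2, more than 18.8%. The Prox1 window matched the TATA letters on the opposite strand, which 12.4% of all windows matched on some strand. The Reln window matched the ETS letters, found in 13.6% of windows, and the Pdpn window matched the SOX letters, found in 27.7%, and the nuclear receptor letters, found in 14.0%. AGATAA, found in 9.99% of windows, had no match in these 3. RefSeq windows were listed for 7 of the 8 genes, the exception being Lyve1. Of those not shown, the Flt4 window held 16 CpG, that of Mmrn1 3, that of Vegfc 30 and that of Fgl2 10. Not all of these lie upstream of the GENCODE gene. The Flt4 window lies wholly in exons of Flt4, and that of Mmrn1 within the gene, at chr6:60944067-60944316. The Fgl2 window has 31 bases in exons. Mmrn1 had r = 0.793 with Reln, and Vegfc had r = 0.308 with Reln and 0.356 with Prox1. A second Prox1 window, also not shown, lies within the GENCODE gene and held 11 CpG and none of the motifs. No relation of CpG content to the correlations was tested.

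The tissue label was checked against marker lists. The 6 smooth muscle genes (Myh11, Acta2, Tagln and others) summed to between 10210 and 17644 CPM per mouse, where CPM are counts scaled to library sizes that edgeR's TMM method had normalized. The 10 general endothelial genes (Pecam1, Cdh5 and others) summed to 990 to 1180 CPM in controls and 1071 to 1276 CPM in AZ6983 mice, and no gene of either list was at 0 in any mouse. Each library had between 23810036 and 35864666 counts on genes. The library of A4 held 1088 CPM of 10 thymocyte and T cell genes against at most 43.0 CPM in any other mouse, and in A5 the 10 most abundant genes took 30.2% of the counts, with at most 22.1% in the others. The off-gene share, meaning the percentage of reads in the table that HTSeq placed on no gene, was 8.02% to 12.7% in controls and 11.2% to 14.9% in AZ6983 mice, with C2 the only control above 10.4%. Counts of Apoe, the gene for which all mice are apoE-/-, were 117 to 306 in controls and 214 to 311 in AZ6983 mice.

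Per kilobase of exon, the 8 genes covered a wide range of levels. The mean over the 12 mice was 108 RPKM (CPM divided by the summed length of the exons in kilobases) for Fgl2, 17.8 for Lyve1, 7.30 for Pdpn, 6.99 for Mmrn1, 2.03 for Vegfc, 1.90 for Flt4, 0.914 for Reln and 0.363 for Prox1. Between neighbours in this order, Pdpn was above Mmrn1 in 8 of 12 mice (exact sign-flip permutation test over mice, two-sided, adjusted p = 0.488) and Vegfc was above Flt4 in 7 of 12 (adjusted p = 0.485, the same exact test), so these 2 pairs did not differ beyond their spread. In each of the other 5 neighbouring pairs the higher gene was higher in 12 of 12 mice (adjusted p = 0.000684, the same exact permutation test, over 7 pairs). The order of Pdpn and Mmrn1, and that of Vegfc and Flt4, turned when the length of the longest coding transcript was used in place of all exons. The transcription factor thus had the lowest level, and its values rest on 24 to 119 counts per mouse.

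Prox1, the regulator of lymphatic identity, was at 0.837 CPM in the lowest control, with a median of 2.80 and a highest value of 3.64, and at 2.58, 3.76 and 4.86 CPM (lowest, median and highest) in AZ6983 mice. Control mice C1 and C4 stood well below the other 10, with 24 counts (exact Poisson 95% interval 15.4 to 35.7) and 28 counts (18.6 to 40.5), where every other mouse had at least 78. These intervals cover counting error only. The control mean was 2.35 ± 1.14 CPM and the AZ6983 mean 3.75 ± 0.788 CPM (SD, n = 6 each), and 4 of 6 AZ6983 mice lay above every control. The log2 fold change was 0.67 (standard error 0.326, unadjusted p = 0.0612, adjusted p = 0.504 by the quasi-likelihood test of edgeR), and an exact permutation test of log2 CPM over the 924 assignments of mice to groups gave p = 0.0368, two-sided and not adjusted. With each mouse left out, the log2 fold change ran from 0.49 without C1 to 0.82 without C2. It was 0.52 without C4 and 0.57 without A5.

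Flt4, which encodes the VEGF-C receptor, was at 9.76, 13.1 and 18.3 CPM (lowest, median and highest) in controls and at 15.1, 17.4 and 22.6 CPM in AZ6983 mice. All 6 AZ6983 mice were above the control median and 2 of them above every control, C2 being the control that overlapped them. The control mean was 13.4 ± 2.87 CPM and the AZ6983 mean 17.8 ± 2.67 CPM (SD, n = 6 each). The log2 fold change was 0.41 (standard error 0.140, unadjusted p = 0.0116, adjusted p = 0.45 from edgeR) and an exact permutation p of 0.0173. This was the smallest unadjusted p of the 8 genes. It stayed under 0.05 in 20 of 21 alternative fits, the exception being the fit that held the off-gene share. With each mouse left out, the log2 fold change ran from 0.32 without A5 to 0.50 without C2.

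Lyve1, the hyaluronan receptor, lay at 33.7, 59.6 and 67.6 CPM (lowest, median and highest) in controls and at 38.5, 49.9 and 52.2 CPM in AZ6983 mice. All 6 AZ6983 mice were below the control median, and none was below C6, the lowest control. On the log2 scale the groups differed by −0.25 (standard error 0.147, adjusted p = 0.552 from edgeR, exact permutation p = 0.216). The 8 genes of the macrophages that carry LYVE1 (Cd163, Mrc1, Folr2, Timd4 and others) summed to 839 to 971 CPM in controls and 697 to 1041 CPM in AZ6983 mice, with none of them at 0 in any mouse, and their part in the Lyve1 values was not tested.

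Pdpn was the least variable marker in controls, with a coefficient of variation of 8.09% and values of 11.6, 12.7 and 14.2 CPM (lowest, median and highest). In AZ6983 mice it was at 11.4, 13 and 18.2 CPM, the highest value belonging to A2, and the groups overlapped over most of their range. The groups differed by 0.08 on the log2 scale (standard error 0.112, adjusted p = 0.809 from edgeR, exact permutation p = 0.623).

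Of the secreted proteins, Reln was at 6.49, 18.5 and 28 CPM (lowest, median and highest) in controls and at 20.7, 25.3 and 32.0 CPM in AZ6983 mice. C1 and C4, the mice lowest for Prox1, were again the lowest, at 6.49 and 10.9 CPM, and every AZ6983 mouse was above the control median. The difference was 0.49 on the log2 scale (standard error 0.286, adjusted p = 0.552 from edgeR, exact permutation p = 0.0801), and without C1 it was 0.31. Mmrn1 was at 19.3, 33.4 and 56.7 CPM in controls and at 38.3, 41.5 and 67.3 CPM in AZ6983 mice, with C1 lowest and C4 next. Its difference on the log2 scale was 0.33 (standard error 0.235, adjusted p = 0.606 from edgeR, exact permutation p = 0.18). The highest Mmrn1 value belonged to A3, whose 5 platelet genes (Pf4, Ppbp and others) summed to 249 CPM, with 56.7 CPM in the next highest mouse. Without A3 the log2 fold change of Mmrn1 was 0.19, and the part of platelets in its level was not tested.

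Vegfc, the ligand, was at 4.20, 4.72 and 7.24 CPM (lowest, median and highest) in controls and at 4.12, 4.83 and 6.42 CPM in AZ6983 mice, from 111 to 213 counts per mouse. The groups overlapped almost completely, and the difference on the log2 scale was −0.02 (standard error 0.157, adjusted p = 0.975 from edgeR, exact permutation p = 0.963). Fgl2, the most abundant of the 8, was at 387, 450 and 495 CPM in controls and at 237, 371 and 472 CPM in AZ6983 mice. Here 4 of 6 AZ6983 mice were below every control and A5 was the lowest, while A1 was above the control median. The log2 fold change was −0.29 (standard error 0.134, unadjusted p = 0.0473, adjusted p = 0.487 from edgeR, exact permutation p = 0.0368). Without A5 it was −0.22. The unadjusted p of Fgl2 was under 0.05 in 11 of 21 alternative fits. It was 0.115 with library totals only and 0.487 with the off-gene share in the model (edgeR).

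**Figure D1:**
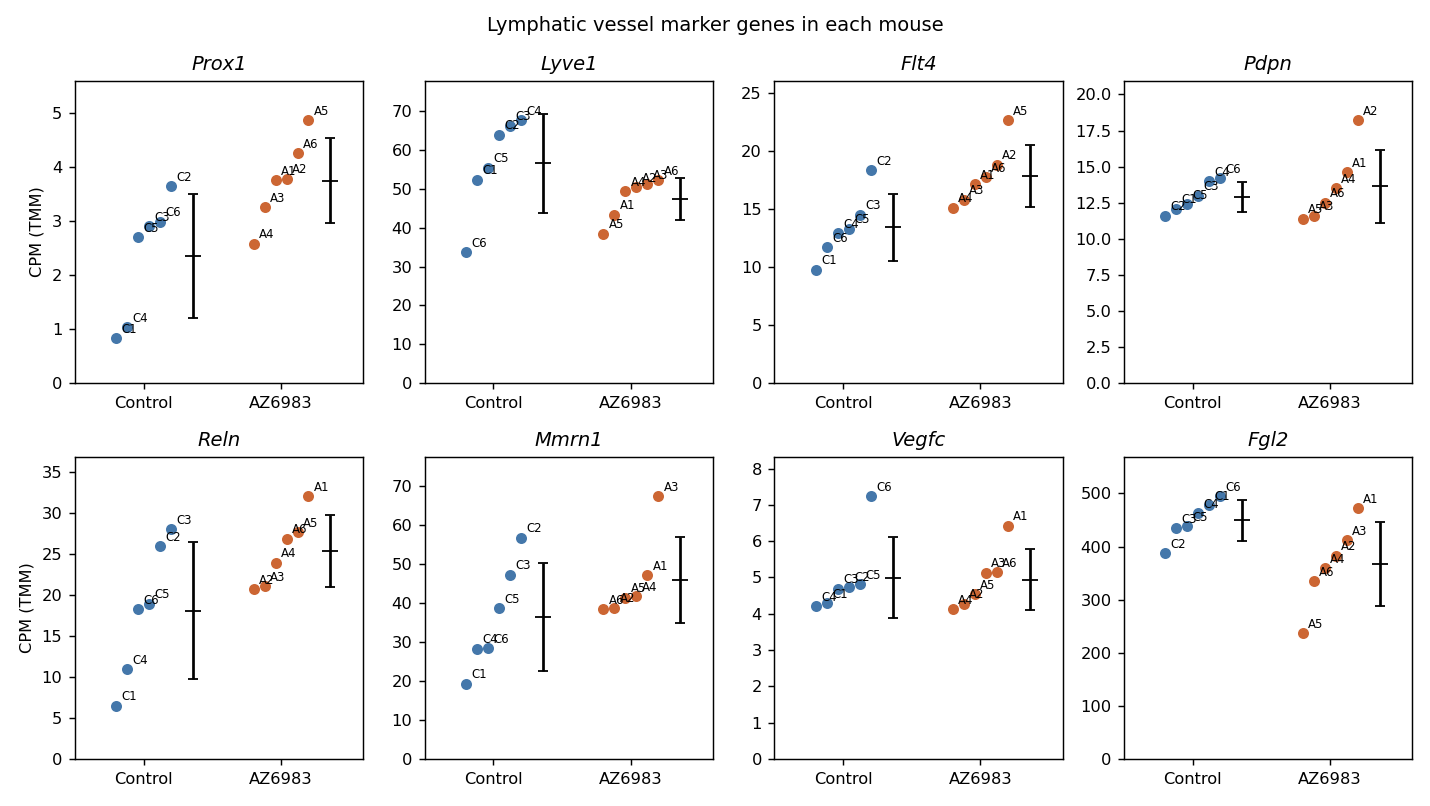
CPM of each marker gene (linear axes from 0) in 6 control and 6 AZ6983 mice, 1 point per mouse, ordered by value and labelled, with the group mean and SD as a bar beside the points. Control mice C1 and C4 are lowest for Prox1 (0.837 and 1.04 CPM), Reln and Mmrn1, but not for Lyve1 or Pdpn, and in no gene are the groups fully separate.

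Across the 15857 genes tested, 0% passed 10% FDR in edgeR, and 0 of the 8 markers passed. DESeq2, the study's tool, called 92 genes when run on every gene and none of the 8 markers. At an unadjusted p under 0.05, 10.2% of all genes passed (1616 genes), 7.38% being higher and 2.81% lower in AZ6983 mice, and 2 of the 8 markers did, Flt4 higher and Fgl2 lower. The groups did not overlap in 0.41% of all genes and in 0 of the 8. Of the 8 log2 fold changes, 5 were positive, with a median of 0.21, where 52.4% of all genes had a positive one and the median was 0.01.

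The markers were split in direction. Prox1, Flt4, Reln and Mmrn1 all had a positive log2 fold change, from 0.33 to 0.67, and that of Lyve1 was negative, both in the main fit and in each of the 21 alternatives. With the off-gene share in the model, the log2 fold change of Prox1 was 0.07 (standard error 0.382), that of Flt4 0.12 (standard error 0.160), that of Reln 0.16 (standard error 0.373) and that of Mmrn1 0.07 (standard error 0.303), and their smallest unadjusted p from edgeR was 0.458. Lyve1 was at −0.34 (standard error 0.215) and Fgl2 at −0.13 (standard error 0.185) in that fit. All controls but C2 had a lower share than every AZ6983 mouse, so share and treatment cannot be fully told apart in it. That fit also assumes the same relation with the share in both groups. For Reln and Mmrn1, r with the share was positive within controls and negative within AZ6983 mice.

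**Figure D2:**
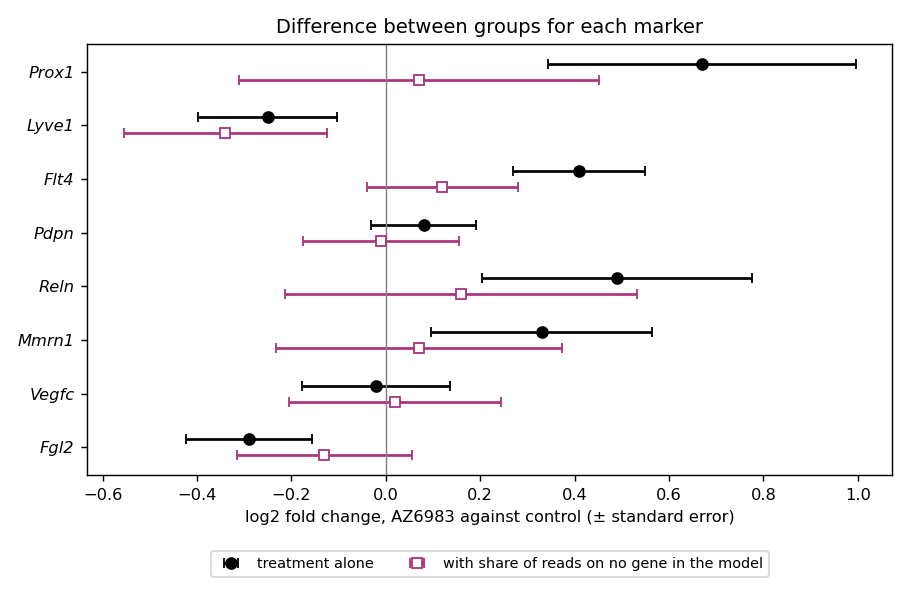
Log2 fold change of each marker, AZ6983 against control, from edgeR with its standard error, for the fit with treatment alone (filled circles) and the fit that also holds the off-gene share (open squares). Prox1, Flt4, Reln and Mmrn1 lie between 0.33 and 0.67 in the former and between 0.07 and 0.16 in the latter, while Lyve1 stays negative in both.

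Whether the markers vary together from mouse to mouse was examined in the 28 pairs of log2 CPM over the 12 mice, and 5 pairs passed 5% FDR in permutation tests of Pearson's r. Prox1 and Reln had r = 0.918 (adjusted p = 0.00938, permutation test) and rho = 0.636 (adjusted p = 0.17, permutation test). Prox1 and Flt4 had r = 0.820 (adjusted p = 0.00938, permutation test) and rho = 0.874 (adjusted p = 0.0146, permutation test). Reln and Mmrn1 had r = 0.793 and rho = 0.678 (adjusted p = 0.0149 and 0.17, permutation tests), and Flt4 and Reln had r = 0.777 and rho = 0.650 (adjusted p = 0.0149 and 0.17, permutation tests). Prox1 with Mmrn1 (r = 0.712, adjusted p = 0.0548, rho = 0.357, adjusted p = 0.573, permutation tests) and Flt4 with Mmrn1 (r = 0.673, adjusted p = 0.0668, rho = 0.531, adjusted p = 0.321, permutation tests) missed the threshold.

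C1 and C4 lay apart from the other 10 mice in Prox1, and the relations of Prox1 with Reln and Mmrn1 and of Reln with Mmrn1 rest on them. In the remaining 10 mice r was 0.849 for Prox1 and Flt4, 0.479 for Prox1 and Reln, 0.065 for Prox1 and Mmrn1 and 0.351 for Reln and Mmrn1. Without C1 and A5, the mice farthest from the median of Flt4, r of Flt4 and Reln was 0.597. Without C1 alone, 0 of the 28 pairs passed 5% FDR, and r of Prox1 and Flt4 was 0.695. Within controls r was 0.944 for Prox1 and Reln (exact permutation p = 0.0111, n = 6) and 0.705 for Prox1 and Flt4 (exact permutation p = 0.122, n = 6). Within AZ6983 mice the values were 0.404 (exact permutation p = 0.421, n = 6) and 0.893 (exact permutation p = 0.0236, n = 6). Within controls Mmrn1 had r of 0.954 with Flt4, 0.923 with Reln and 0.824 with Prox1 (n = 6). Within AZ6983 mice these values were −0.43, −0.26 and −0.31 (n = 6), and the difference between the groups was not tested. These 6 include A3, whose Mmrn1 of 6.07 log2 CPM lay apart from the other AZ6983 mice, at 5.26 to 5.56. Over all mice but A3, r of Mmrn1 was 0.757 with Flt4, 0.906 with Reln and 0.775 with Prox1. Values within AZ6983 mice without A3 are not given here.

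Lyve1 followed none of these 4 genes over the 12 mice. Its r was −0.38 with Prox1 (rho = −0.46), −0.12 with Flt4 (rho = −0.27), −0.18 with Reln (rho = −0.19) and 0.14 with Mmrn1 (rho = −0.03), with adjusted p for r between 0.546 and 0.907 (permutation tests). In C4, with 28 counts of Prox1, Lyve1 was at 67.6 CPM, its highest value in any mouse. Pdpn had r of 0.017 with Prox1, 0.009 with Flt4 and 0.012 with Reln (adjusted p = 0.978 each, permutation tests). Vegfc and Flt4, ligand and receptor, had r = −0.08 (rho = −0.01, adjusted p = 0.907 for r, permutation test). The remaining pair past 5% FDR was Flt4 with Fgl2, which went in opposite directions (r = −0.77, adjusted p = 0.0149, rho = −0.80, adjusted p = 0.0421, permutation tests). Without C1 and A5 this r was −0.66, and it was −0.90 within controls (exact permutation p = 0.0208, n = 6) and −0.73 within AZ6983 mice (exact permutation p = 0.117, n = 6). With library totals in place of TMM, r of Flt4 and Fgl2 was −0.57 (adjusted p = 0.206, permutation test). The pair also missed 5% FDR without C1, without C6 or without A5 (adjusted p = 0.0636, 0.0539 and 0.0712, permutation tests).

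**Figure D3:**
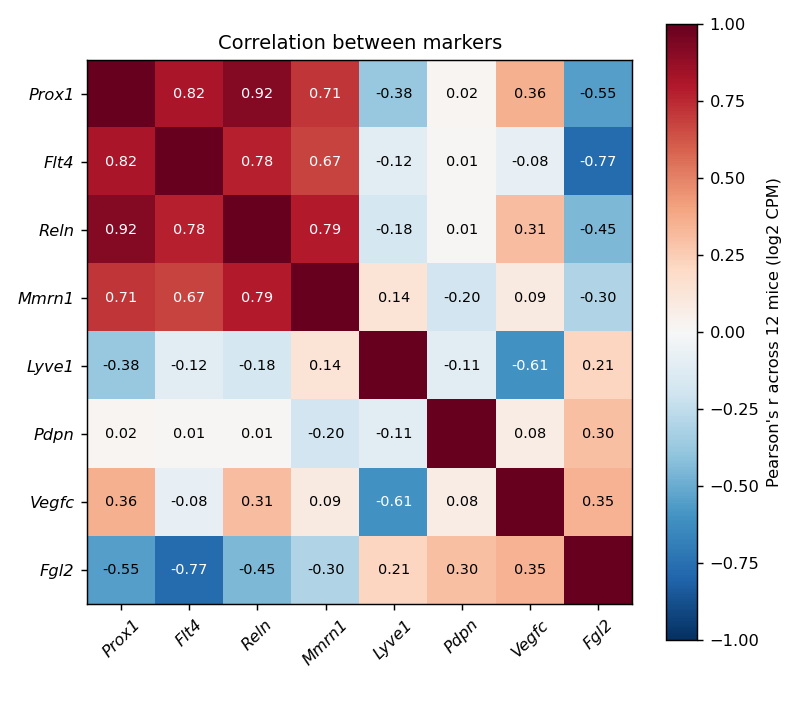
Pearson's r of log2 CPM between each pair of markers over 12 mice, with the colour scale from −1 to 1. The block of Prox1, Flt4, Reln and Mmrn1 holds values of 0.673 to 0.918, while Lyve1, Pdpn and Vegfc lie outside it and Fgl2 is negative with all 4.

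**Figure D4:**
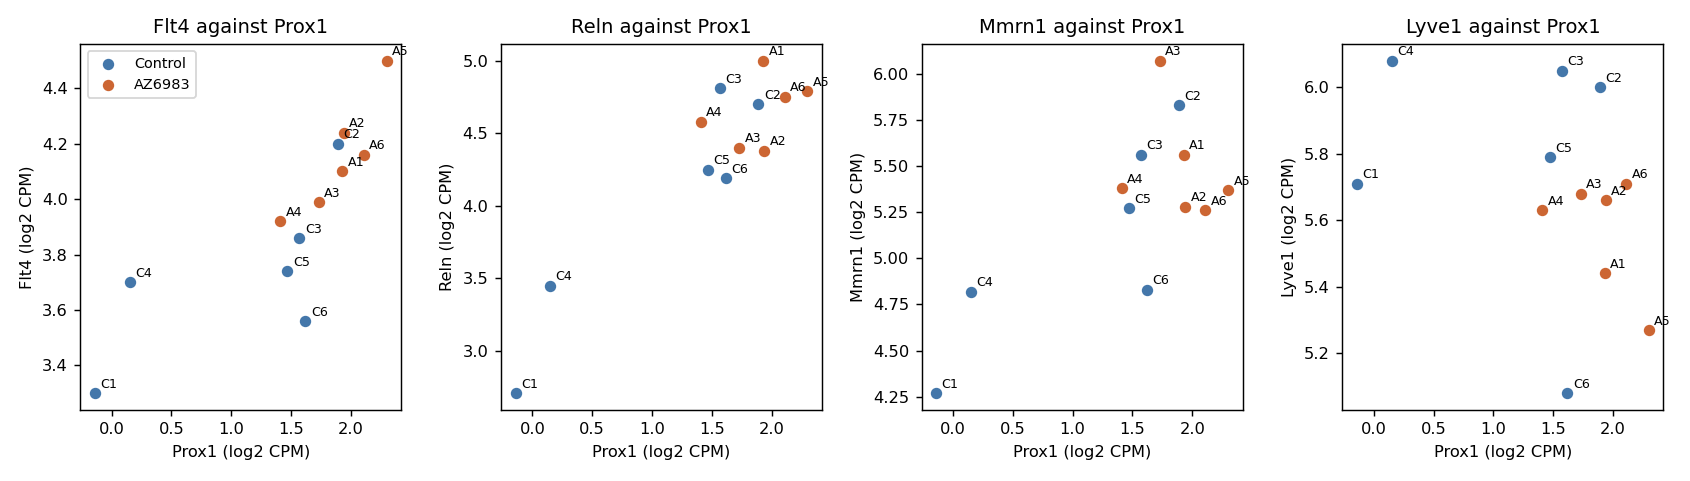
Flt4, Reln, Mmrn1 and Lyve1 against Prox1, all in log2 CPM, 1 labelled point per mouse in the colour of its group. C1 and C4 lie apart on the left in every panel, and in the remaining 10 mice Flt4 still follows Prox1 (r = 0.849) whereas Mmrn1 does not (r = 0.065).

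The off-gene share moved with some of the markers. Its r over the 12 mice was 0.819 with Flt4 (rho = 0.874, adjusted p = 0.00556 and 0.00416, permutation tests over 8 relations) and 0.776 with Prox1 (rho = 0.804, adjusted p = 0.00556 and 0.0098, permutation tests). Without C1 and A2, whose shares lay farthest from the median, r was 0.727 and 0.703. For Reln r was 0.640 (rho = 0.427, adjusted p = 0.0595 and 0.304, permutation tests), for Mmrn1 0.547 (rho = 0.378, adjusted p = 0.103 and 0.304, permutation tests) and for Lyve1 −0.17 (rho = −0.38, adjusted p = 0.683 and 0.304, permutation tests). For Fgl2 r was −0.60 (rho = −0.77, adjusted p = 0.0729 and 0.0129, permutation tests). Within controls r was 0.828 for Prox1 (exact permutation p = 0.0125, n = 6) and 0.881 for Flt4 (exact permutation p = 0.0431, n = 6), and within AZ6983 mice 0.246 (exact permutation p = 0.647, n = 6) and 0.283 (exact permutation p = 0.592, n = 6). For Reln and Mmrn1 it was 0.779 and 0.834 within controls (exact permutation p = 0.0653 and 0.0347, n = 6). Within AZ6983 mice it was negative for both, at −0.53 and −0.55 (exact permutation p = 0.286 and 0.283, n = 6). After the share was removed from both genes by regression, an alternative chosen after the data were seen, r of Prox1 and Reln was 0.870, that of Reln and Mmrn1 0.688 and that of Prox1 and Flt4 0.509. C1, the mouse lowest for Prox1, Flt4, Reln and Mmrn1, also had the lowest share, 8.02%. Among controls only C2, at 12.7%, reached the range of AZ6983 mice, which was 11.2% to 14.9%. Share and treatment can thus not be fully told apart, and what the share reflects was not tested.

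**Figure D5:**
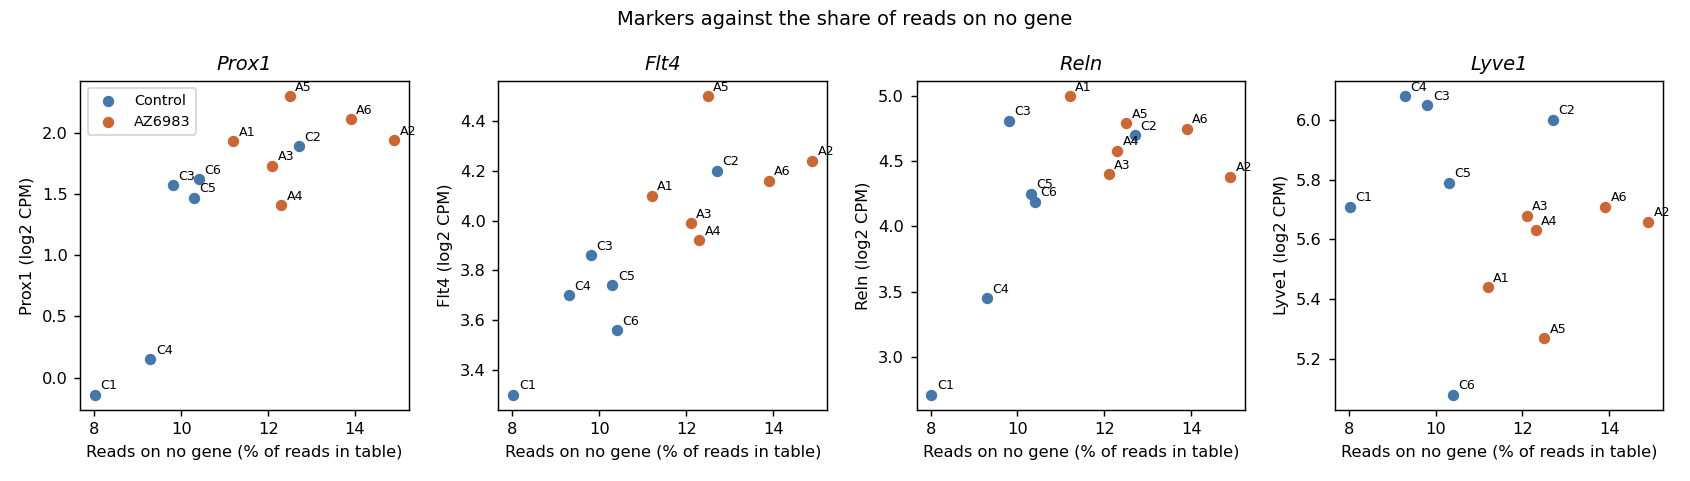
Prox1, Flt4, Reln and Lyve1 (log2 CPM) against the off-gene share (% of reads in the table), 1 labelled point per mouse. Prox1 and Flt4 are higher where the share is higher (r = 0.776 and 0.819) and Lyve1 is not (r = −0.17), and 5 of the 6 controls lie at the left end, below every AZ6983 mouse.

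Each marker was also set beside 15 lists of marker genes of other cells that the dissected tissue could hold, and 0 of 120 relations passed 5% FDR, while 14 had an unadjusted permutation p under 0.05. The smallest was that of Reln with 7 nerve and Schwann cell genes (r = 0.793, rho = 0.706, unadjusted p = 0.00104, adjusted p = 0.125, permutation test), where r was 0.473 without C1 and C4. These genes summed to 85.5 CPM in C1 and 93.3 in C4 and to 89.0 to 325 CPM in the other mice. Prox1 had r = 0.684 with 7 skeletal muscle genes and Flt4 0.729 (rho = 0.713 and 0.769, adjusted p = 0.2 each, permutation tests), and that list ranged from 3.72 CPM in C4 to 456 CPM in A6. Without C4 and A6 these values were 0.519 and 0.725. Fgl2 had r = 0.814 with 6 smooth muscle genes (rho = 0.727, adjusted p = 0.2, permutation test), which were lowest in A5, the mouse lowest for Fgl2, and r = 0.501 without A5 and C2. Pdpn had r = 0.710 with 7 fibroblast genes (rho = 0.545, adjusted p = 0.228, permutation test), and r = 0.318 without A2 and A5. The part of these cells in the marker values was not tested.

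Of the rest of the lymphatic program, 39 genes in 3 lists were tested, and their counts are read against the 10.2% of all genes at an unadjusted p under 0.05 (7.38% higher and 2.81% lower) and the 52.4% with a positive log2 fold change. In the VEGF-C axis, 0 of 11 genes passed 10% FDR and 1 had an unadjusted p under 0.05, near the share over all genes. This was Adamts3, a protease that processes VEGF-C, with a control mean of 2.73 CPM and an AZ6983 mean of 3.80 CPM (log2 fold change 0.48, standard error 0.173, adjusted p = 0.45 from edgeR). Next were Figf, the older symbol of Vegfd and a further ligand of VEGFR3 (log2 fold change 0.26, standard error 0.130, adjusted p = 0.511 from edgeR), and its coreceptor Nrp2 (0.34, standard error 0.177, adjusted p = 0.525 from edgeR). Ccbe1, a cofactor of VEGF-C processing, differed by −0.14 on the log2 scale (standard error 0.186, adjusted p = 0.798 from edgeR). The median of the 11 was 0.09, and 9 were positive, where all genes had a median of 0.01 and 52.4% were positive.

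Among 9 transcription factors of lymphatic development, 0 passed 10% FDR and 1, Maf, had an unadjusted p under 0.05 (log2 fold change 0.23, standard error 0.0933, adjusted p = 0.466 from edgeR). Nfatc1, which takes part in valve formation, differed by 0.23 on the log2 scale (standard error 0.115, adjusted p = 0.503 from edgeR) and Tbx1 0.39 (standard error 0.198, adjusted p = 0.513 from edgeR). Sox18 and Nr2f2, which act upstream of Prox1, were at log2 fold changes of 0.00 and 0.09 (adjusted p = 0.999 and 0.794 from edgeR). The median of the 9 was 0.00, with 4 positive. Their count at an unadjusted p under 0.05 was near the 10.2% of all genes.

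Of 19 further genes listed for lymphatic vessels, not all of them particular to lymphatic endothelium, again 0 passed 10% FDR. At an unadjusted p under 0.05 were 3, all higher in AZ6983 mice, the direction of 1170 of the 1616 genes at that p. These were Vangl2 (log2 fold change 0.94, standard error 0.385), a planar polarity protein, Tie1 (0.16, standard error 0.0655), an endothelial receptor, and Piezo1 (0.24, standard error 0.108), a mechanosensitive channel. Their adjusted p was 0.466, 0.466 and 0.487 from edgeR. The median of the 19 was 0.18, with 15 positive. The largest of these was that of Clec1b (1.17, standard error 0.632, adjusted p = 0.532 from edgeR). Clec1b had 37 to 86 counts in controls and 21 to 471 in AZ6983 mice. Ccl21a, the chemokine with which lymphatic endothelium draws in dendritic cells, ranged from 167 to 526 counts in controls and from 315 to 961 in AZ6983 mice, and differed by 0.43 on the log2 scale (standard error 0.287, adjusted p = 0.587 from edgeR). Over the 3 lists 5 of 39 genes had an unadjusted p under 0.05, a share near the 10.2% of all genes. All 5 were higher in AZ6983 mice, as were 1170 of the 1616 genes at that p. Over all genes tested, 7.38% were both at that p and higher. Of the 39, 71.8% had a positive log2 fold change and the median was 0.15, where all genes had 52.4% and 0.01. The lists were not tested as sets. With the off-gene share in the model, 0 of 39 had an unadjusted p under 0.05, and over all genes the share was 2.95%.

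The genes most like the markers were found among all tested genes by Pearson's r over the 12 mice, and these values are a description with no test. Against the mean of the standardized log2 CPM of Prox1, Lyve1, Flt4, Reln and Mmrn1, which was lowest in C1 (−1.72) and highest in C2 (0.81), the highest r was that of Col6a5, a collagen VI chain (0.932, rho = 0.825). Col6a5 was at 3.84 to 15 CPM in controls and 9.55 to 13.7 CPM in AZ6983 mice, and its r with the off-gene share was 0.791. Next came Gm10575 (0.90), Gm42878 (0.890), Gm37058 (0.888), Gm36944 (0.886), Cdk15 (0.883), Gm28791 (0.883), Gm37368 (0.876), Fam217a (0.875) and Ldb2 (0.860), of which all but Ldb2 averaged at most 1.10 CPM. With the off-gene share, r of these genes ran from 0.456 to 0.872, where the median over all genes was 0.01. With the mean of the markers, the median r over all genes was 0.036. Of the 39 lymphatic genes above, Ccl21a (0.788) and Tbx1 (0.761) had the highest r with this mean.

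By single marker, the highest r was with Gm26624, Gas7 and RP23-406J21.4 for Prox1 (0.942 to 0.947), with Plekhm1, Tbx1 and Malat1 for Flt4 (0.924 to 0.944), and with Fam217a, Frem2 and Wbscr17 for Reln (0.915 to 0.958). For Mmrn1 they were Iqgap2, Cdk15 and Agt (0.856 to 0.915), for Lyve1 Ifi204, Nol8 and Fgfr3 (0.874 to 0.892), and for Pdpn Msn, Tmed10 and Fam160b1 (0.879 to 0.913). For Vegfc they were Wdsub1, Nrep and Pdgfra, a marker of fibroblasts (0.892 to 0.952), and for Fgl2 Cpe, Lhfp and Tifa (0.968 to 0.980). Only Fam217a and Cdk15 stood in more than 1 of these 8 sets or in the set of the mean. With the off-gene share, the genes listed for Prox1 had r of 0.712 to 0.895 and those for Flt4 0.691 to 0.891. Those for Reln had 0.55 to 0.65, and those for Lyve1 −0.172 to −0.035.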

How the data were processed

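RNA of thoracic aorta from 6 AZ6983 and 6 control mice was sequenced by the authors as stranded total RNA with ribosomal RNA removed, on a NextSeq500 with paired reads. Per the labels, the submitters' processing notes name CASAVA 1.8.2, STAR 2.5.2b, HTSeq 0.6.1p1 and the build mm10, and the annotation is not given in the sources used here. The authors deposited raw counts per gene symbol, with 3 further rows that name no gene. These held 8.02% to 14.9% (no gene), 18.1% to 23.2% (not unique) and 0.606% to 0.698% (ambiguous) of the reads per mouse and entered neither library sizes nor tests.

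Columns were matched to mice by the number in the sample title. The column of A1 shares 3 of the 4 digits of its number, found in no other title, and fits without A1 are included in the ranges of the closing section. No batch is labelled, and the meaning of the library numbers in the column names is not given. No 2 libraries were copies (chi-square per degree of freedom of at least 12.0 over 66 pairs).

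Groups were compared with edgeR 4.0.16 in R 4.3.3 (TMM, filterByExpr, quasi-likelihood test, no covariate) over 15857 genes, with Benjamini-Hochberg adjustment at the study's threshold of 10% FDR. Standard errors are the log2 fold change divided by the root of the F statistic. Log2 CPM used a prior count of 2. Correlations used 100000 permutations. RPKM used the summed exons of GENCODE M21. The alternatives were DESeq2 1.42.0, limma-voom (limma 3.58.1), other normalizations, filters and thresholds, the share of reads on no gene added to the model (the off-gene share), and each mouse left out. Relations with that share were added after the data were seen. The markers and lists were chosen with earlier results of these data known. Named genes were all markers, the 3 genes with the smallest p in each lymphatic list and the genes most like the markers. Ccbe1, Sox18, Nr2f2, Ccl21a, Clec1b and Apoe were named after their values were seen. 1 listed item is not reported here. Only the group comparison by edgeR, limma-voom and DESeq2 was tested on simulated data, with planted changes larger than those of the markers.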

Additional observations from a re-analysis of the deposited data

Results flagged for a closer look

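In 58 groups of 6 mice (8 markers, 18 gene lists and 3 measures of the libraries, each in controls and in AZ6983 mice), 6 held a mouse set apart from the other 5 by Dixon's test at the 95% level, where chance gives 2.9.

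Control mouse C6 was set apart in 2 markers. Its Lyve1 was low, at 5.08 log2 CPM with the other controls at 5.71 to 6.08, and its Vegfc was high, at 2.87 log2 CPM with the others at 2.10 to 2.29. The same mouse was low for 5 brown fat genes (mean 8.04 log2 CPM, the others 8.55 to 8.74). Without C6 the log2 fold change of Lyve1 was −0.36 and that of Vegfc was 0.12. No cause was tested.

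AZ6983 mouse A3 had a Mmrn1 of 6.07 log2 CPM, with the other AZ6983 mice at 5.26 to 5.56. Control mouse C2 was high for 6 white fat genes (8.01 log2 CPM, the others 7.20 to 7.46), and A2 was high for the cartilage genes (2.80 log2 CPM, the others 1.77 to 1.97).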

How the results depend on the processing

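Among the 8 markers, the log2 fold changes of Prox1, Flt4, Reln, Mmrn1, Lyve1 and Fgl2 kept their sign in 21 of 21 alternatives each, and no marker passed 10% FDR in any of them. Pdpn reversed to −0.01 with the off-gene share in the model and lay between −0.04 and 0.12 with each mouse left out. Vegfc reversed to 0.02 in that model and lay between −0.11 and 0.12 with each mouse left out. The number of genes past 10% FDR, 0 in edgeR, was 92 with DESeq2 on every gene, 84 with DESeq2 on filtered genes, 2 with library totals only and 0 to 27 with each mouse left out, the highest without A5. The number of lymphatic list genes past 10% FDR was 0 throughout. Those at an unadjusted p under 0.05, 5 of 39, were 3 without a filter, 0 with the off-gene share in the model and 2 to 9 with each mouse left out, the highest without A1. The number of pairs of markers past 5% FDR, 5, was 0 to 7 with each mouse left out, and that of relations with marker lists, 0, was 0 to 1. The correlations of Lyve1 with Reln, Mmrn1 and Flt4 changed sign. With each mouse left out, r ran from −0.301 to 0.001 with Reln, from −0.067 to 0.314 with Mmrn1 and from −0.464 to 0.142 with Flt4, and the last was 0.039 with the off-gene share removed. Over the length of the longest coding transcript, mean RPKM was 2.14 and 2.85 for Flt4 and 1.54 and 2.16 for Reln in control and AZ6983 mice, and 10.2 for Mmrn1 in AZ6983 mice. The cause of the changes with the tool was not tested. The values of Prox1 are limited by counts of 24 to 119. No paired analysis was possible because the labels give each mouse its own number and no number is shared between the groups.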
